A study of Mus musculus with 8 samples.

Results

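The genes described here are 39 genes of protein folding stress, measured in haematopoietic stem cells sorted from mouse fetal liver. They comprise 23 genes of the endoplasmic reticulum (ER), which are the sensors, transcription factors, chaperones and degradation factors of the unfolded protein response. A further 13 genes belong to the cytosolic heat shock system, and 3 encode chaperones of the mitochondrial matrix. Membership was set by gene symbol, and every probe set annotated with 1 of these symbols alone was taken. Such probe sets covered 37 of the 39 genes, of 18193 genes with a probe set of 1 symbol on the array. Hsf1, the main transcription factor of the heat shock response, and Hsp90ab1, the constitutive cytosolic Hsp90, had none. A gene took the log2 signal of its brightest probe set by mean over the 8 arrays. Of the 37 genes, 35 had a mean above the filter level of 2.72, the median over all probe sets, and were tested together with 10600 genes in all. These were all 23 ER genes, 9 cytosolic genes and all 3 mitochondrial genes. Hsf2, a second heat shock factor, had sample means of 2.33, 2.33, 2.33 and 2.53, and Hspb1, a small heat shock protein, had 2.23 in each of the 4 samples, so both stayed near background.

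In the ER, the folding of secreted and membrane proteins depends on chaperones of the Hsp70 and Hsp90 families, on the lectins calnexin and calreticulin and on disulfide isomerases. When unfolded proteins accumulate, the sensors IRE1 (Ern1), PERK (Eif2ak3) and ATF6 (Atf6) act through spliced Xbp1, through phosphorylation of eIF2alpha and Atf4, and through cleaved ATF6, which together raise chaperone genes and slow translation. The cytosol has a separate system, in which heat shock factor raises Hsp70, Hsp40 and Hsp90 genes. Stem cells of the fetal liver divide and make protein faster than those of adult marrow and are known to be sensitive to ER stress.

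Arrays were hybridised with RNA of wild-type and of Crebbp+/- embryos, which carry 1 intact copy of the gene for CBP, a histone acetyltransferase and coactivator of many transcription factors. All embryos had a C57BL/6 background and an age given as 14.5 days post coitum in one label and as 14 in another. Each preparation combined 15 embryos, sorted as Sca-1+, Lin-, AA4.1+ and c-Kit++ cells, and 12 ng of total RNA was amplified with the Ovation system and turned into biotinylated cDNA. Per the titles each genotype has samples numbered 1 and 2, with 2 replicate arrays apiece. They do not say whether replicate arrays came from separate cells, nor what a sample number shares between genotypes, so arrays were averaged and n = 2 samples per genotype. The p-values therefore measure the spread between these preparations. How the mutant allele was made is not stated in the labels.

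The median signal of the arrays lay between 2.65 and 2.70, and the number of samples, 2 per genotype, limits the precision. Kit, Cd93, Cd34 and Ptprc, markers of the sorted cells, were above the filter in all 4 samples, and no probe set of 1 symbol measured Ly6a, which encodes Sca-1. The 4 probe sets of Crebbp differed between genotypes by -0.42 to 0.07, and the brightest had sample means of 12.07 and 11.41 in wild type and of 11.95 and 11.66 in Crebbp+/-. The labels do not say which part of the gene is altered, so this reading does not test the genotype labels. Of 7 measured hepatocyte markers 5 passed the filter, and their summed log2 level was 15.5 and 36.4 in the wild-type samples numbered 1 and 2, and 29.2 and 32.0 in those of Crebbp+/-. In such bulk samples, fewer cells of a type and less RNA per cell cannot be told apart.

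Promoter sequences show which members carry the elements through which these responses are known to act. RefSeq promoters of build GRCm38.p6, the 250 bases before each annotated start, were available for 31 of the 39 genes. The ER stress response element (ERSE), CCAAT followed after 9 bases by CCACG, is bound by ATF6 and XBP1 with NF-Y and was found on either strand in 37 of all 32851 promoters, a share of 0.113%. It was present in 6 of the 20 ER members with a promoter, and the shorter ERSE-II, ATTGG followed after 1 base by CCACG, found in 0.0304% of all promoters, was present in Herpud1. These sites are shown because they mark the members that hold the exact element, each read 5′ to 3′ on the strand that matches it, with the fixed bases of the motif in capitals.
Hspa5, chr2:34772025-34772043, plus strand: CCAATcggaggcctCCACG
Dnajc3, chr14:118937827-118937845, plus strand: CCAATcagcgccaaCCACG
Hsp90b1, chr10:86705638-86705656, minus strand: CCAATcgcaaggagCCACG
Hsp90b1, chr10:86705533-86705551, plus strand: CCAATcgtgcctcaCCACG
Calr, chr8:84847075-84847093, plus strand: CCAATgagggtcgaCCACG
Canx, chr11:50325800-50325818, minus strand: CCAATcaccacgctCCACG
Pdia6, chr12:17266491-17266509, plus strand: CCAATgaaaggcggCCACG
Herpud1 (ERSE-II), chr8:94386377-94386387, plus strand: ATTGGgCCACG

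The whole 250 bases are shown for Hspa5, the ER Hsp70, and for Hsp90b1, the ER Hsp90, since the results below return to both. Each is written in the direction of its gene and ends just before the start site, with the ERSE bases in capitals. In Hsp90b1 the second element lies on the opposite strand and therefore appears as its reverse complement.
Hspa5, chr2:34771840-34772089, plus strand: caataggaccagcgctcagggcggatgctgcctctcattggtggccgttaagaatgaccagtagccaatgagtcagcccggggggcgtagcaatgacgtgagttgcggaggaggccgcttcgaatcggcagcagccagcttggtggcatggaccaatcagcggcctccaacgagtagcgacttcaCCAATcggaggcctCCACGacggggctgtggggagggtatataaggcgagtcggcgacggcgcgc
Hsp90b1, chr10:86705445-86705694, minus strand: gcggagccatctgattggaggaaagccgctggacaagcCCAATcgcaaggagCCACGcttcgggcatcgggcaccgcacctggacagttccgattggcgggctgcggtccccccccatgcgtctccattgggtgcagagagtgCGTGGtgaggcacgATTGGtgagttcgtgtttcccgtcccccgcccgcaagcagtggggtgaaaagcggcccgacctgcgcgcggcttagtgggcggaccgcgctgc

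The cAMP response element (CRE), TGACGTCA, is the site through which CREB recruits CBP, the product of Crebbp, and was present in 508 of the 32851 promoters (1.55%). Of the 31 members with a promoter 1 held it, Ppp1r15a, 12 to 5 bases before the start at chr7:45526273-45526280. The promoter is shown 5′ to 3′ in the direction of the gene with the element in capitals.
Ppp1r15a, chr7:45526269-45526518, minus strand: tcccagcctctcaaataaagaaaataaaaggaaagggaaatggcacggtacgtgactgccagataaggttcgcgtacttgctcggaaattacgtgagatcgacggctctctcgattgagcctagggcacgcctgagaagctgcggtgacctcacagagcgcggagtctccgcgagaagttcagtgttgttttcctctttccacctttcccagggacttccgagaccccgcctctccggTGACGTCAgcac

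The heat shock element, searched on both strands as GAA, TTC and GAA or as TTC, GAA and TTC, each 2 bases apart, was found in 0.466% of all promoters and in those of Hspd1 and Hspe1. These neighbouring genes encode the mitochondrial chaperonin and its lid, and are read in opposite directions from starts 216 bases apart, for 1 of the 2 Hspd1 starts supplied. They share 1 stretch of 18 bases in which the 2 forms of the element overlap, shown on the plus strand with the fixed bases in capitals.
Hspe1 and Hspd1, chr1:55088059-55088076, plus strand: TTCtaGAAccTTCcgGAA

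The UPR element TGACGTGG (0.563% of all promoters) and the amino acid response element TGATGNAAT (0.816%) were found in none of the 31 promoters, those of ER members included, and none of the 9 cytosolic members with a supplied promoter held any of the motifs searched. A match is a description of letters, and an absent match says only that these letters are not in this window.

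The first comparison asked how these genes differ between Crebbp+/- and wild-type cells. By genotype 0 of the 35 members passed the test (limma, Benjamini-Hochberg adjustment over 22518 probe sets, threshold 0.05), beside 0% of all genes, and the lowest adjusted p of any member probe set was 0.991. Of the ER genes, 16 had a higher and 7 a lower mean in Crebbp+/-, with a median log2 difference of 0.08. Cytosolic genes had a median of -0.01 with 4 higher and 5 lower, and the 3 mitochondrial genes were all higher with a median of 0.13. Over all 10600 genes the median was 0.04, with 6028 higher and 4572 lower. At an unadjusted p under 0.05, 1 of the 35 members differed, Dnajc6, beside 2.67% of all genes; 1 member was higher, beside 1.39% of all genes, and 0 lower, beside 1.28%.

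The median absolute genotype difference of the members, between means of 4 arrays, was 0.13. Single replicate arrays of 1 sample differed by a median of 0.13 for the members. Over all genes these values were 0.18 and 0.20. Within sample number 1 the ER median was -0.02, and within number 2 it was 0.15. The genotype difference had the same sign in both numbers for 13 of 23 ER genes and 3 of 9 cytosolic genes, beside 61.9% of all genes. The ER median was -0.04 without wild-type sample 2 and 0.0011 without Crebbp+/- sample 2. Other measures differed between the genotypes too. The 5′ minus 3′ signal of the Gapdh control was 0.52 and that of Actb 0.44 closer to 0 in Crebbp+/-. All 8 genes of cell handling were lower with a median of -0.19, and 5 of the 8 had that sign in both numbers. All 5 tested hepatocyte markers were higher with a median of 0.80, but the median was 3.03 in number 1 and -0.85 in number 2, and none had 1 sign in both. Of the 5 mast cell markers 3 were tested, and all 3 were higher in both numbers, with summed levels of 17.4 and 16.4 in wild type and 19.9 and 19.1 in Crebbp+/-. Among them Cpa3, a mast cell carboxypeptidase, had sample means of 2.92 and 3.45 in wild type and 5.27 and 5.44 in Crebbp+/-, a difference of 2.18 (SE 0.29; limma adjusted p 0.991), while Ms4a2 and Fcer1a, which encode chains of the IgE receptor, stayed at background. The part of these measures in the result was not tested.

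Among the sensors, Ern1, the kinase and endonuclease that splices Xbp1, had sample means of 8.68 and 8.71 in wild type and of 8.47 and 8.42 in Crebbp+/-. The difference was -0.25 (SE 0.20), and both mutant samples lay below both wild-type samples although single arrays overlapped. Eif2ak3, the kinase that phosphorylates eIF2alpha, had 6.50 and 6.12 in wild type and 6.00 and 6.58 in Crebbp+/-, so that its genotype difference was -0.50 in number 1 and 0.46 in number 2. Atf6, the membrane-bound transcription factor released by cleavage, was higher in both mutant samples by 0.28 and 0.35, with a difference of 0.32 (SE 0.27). Its wild-type arrays ranged from 6.38 to 7.67 and enclosed all 4 mutant arrays.

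Of the transcription factors, Xbp1 and Atf4 differed between genotypes by less than the samples of 1 genotype lay apart, and Ddit3 by more. Xbp1, the factor made active by splicing, had a difference of 0.24 (SE 0.30), and Atf4, whose translation rises when eIF2alpha is phosphorylated, one of 0.05 (SE 0.15). Ddit3, which encodes CHOP and is a target of Atf4, had sample means of 6.04 and 6.03 in wild type and of 5.78 and 5.52 in Crebbp+/-. Both mutant samples lay below both wild-type samples, although single arrays overlapped. Its difference of -0.39 (SE 0.28) had an interval from -1.12 to 0.35, and its other probe set had the opposite sign at 0.13. These array signals measure total transcript and not splicing, translation or cleavage, through which the sensors act.

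Both regulatory subunits of the eIF2alpha phosphatase were measured. Ppp1r15a, the stress-induced subunit with the CRE shown above, had arrays of 8.12, 7.65, 7.64 and 7.96 in wild type and of 7.23, 6.80, 7.67 and 7.76 in Crebbp+/-. Both arrays of mutant sample 1 lay below all other arrays, whereas mutant sample 2 lay within the wild-type range, and the difference was -0.48 (SE 0.33) over both numbers, -0.87 in number 1 and -0.09 in number 2. Ppp1r15b, the constitutive subunit, was higher in Crebbp+/- by 0.39 (SE 0.39), less than the distance between the samples of 1 genotype. Trib3, a pseudokinase induced by Atf4 and Ddit3, was close to background with sample means of 3.18, 3.38, 2.91 and 4.01.

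At their brightest probe sets the chaperones of the ER lumen had genotype differences from -0.27 to 0.14. Hspa5, the Hsp70 that also holds the sensors inactive, had sample means of 11.94 and 12.10 in wild type and 11.76 and 12.04 in Crebbp+/-, a difference of -0.12 (SE 0.15). Its partners were Dnajb9 at -0.27 (SE 0.31), Dnajc3 at 0.10 (SE 0.21) and Sdf2l1 at 0.14 (SE 0.31), which are J-domain cochaperones or their binding partner. The other probe sets of Dnajc3 differed by 0.67, 0.54, 0.55 and -0.07, and on the first of these the arrays of the genotypes did not overlap. Manf, a secreted factor that binds Hspa5, differed by 0.02 (SE 0.21), and Hsp90b1 by 0.07 (SE 0.24). The lectin chaperones Calr and Canx, which hold newly glycosylated proteins, differed by 0.08 (SE 0.12) and 0.06 (SE 0.14). At these probe sets their 95% intervals were -0.22 to 0.39 for Calr and -0.32 to 0.43 for Canx. The other probe sets of Calr differed by 0.0025 and 0.04. Those of Canx differed by 0.43 (SE 0.26) and 0.63 (SE 0.40), at or beyond the upper end of its interval.

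Of the disulfide isomerases, Pdia3, which works with the lectins on glycoproteins, had a difference of 0.38 (SE 0.36), Pdia6 one of 0.13 (SE 0.23) and Pdia4 one of -0.20 (SE 0.22). A second, dimmer probe set of Pdia3 had sample means of 5.61 and 3.98 in wild type and of 6.42 and 6.56 in Crebbp+/-, a difference of 1.70 (SE 0.60), and was the only member probe set besides that of Dnajc6 with an unadjusted p under 0.05 by genotype. Its single arrays overlapped between genotypes, and its adjusted p was 0.991 (limma). For ER-associated degradation, Herpud1, a membrane scaffold of the degradation complex, differed by 0.23 (SE 0.34), Sel1l, the adaptor of its ubiquitin ligase, by 0.13 (SE 0.21), and Edem1, a lectin that selects glycoproteins for disposal, by 0.09 (SE 0.34). At its brightest probe set each of these 3 genes was lower in the mutant of number 1 and higher in that of number 2. The other probe set of Herpud1 did the same, at -0.18 and 0.11. Other tested probe sets of Sel1l (0.53 and 0.52, 0.93 and 0.34) and Edem1 (0.35 and 0.35) were higher in both numbers.

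**Figure D1:**
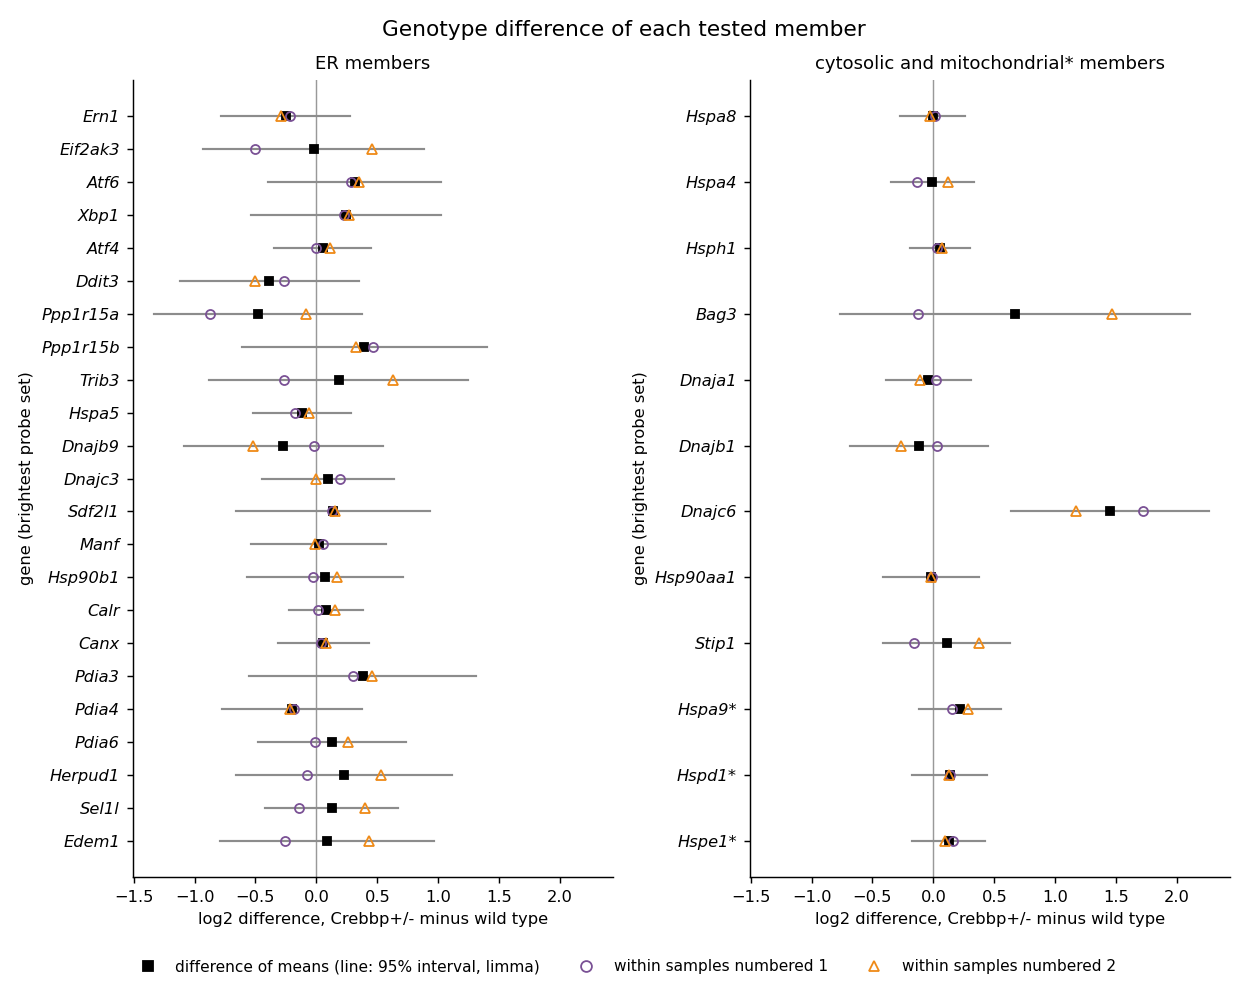
The plot shows the log2 difference between Crebbp+/- and wild type for each tested member as a square with its 95% interval from limma, together with the differences within samples numbered 1 (circle) and 2 (triangle). The interval of Dnajc6, 0.63 to 2.26, lies above 0, and the intervals of the other 34 members include 0.

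Dnajc6 encodes an auxilin, a J-domain cochaperone that directs Hspa8 to clathrin coats. Its arrays read 4.22, 3.19, 4.0 and 4.56 in wild type and 5.03, 5.82, 5.0 and 5.91 in Crebbp+/-. All 4 mutant arrays lay above all 4 wild-type arrays, and the mean of the wild-type samples was 3.99 ± 0.41 (SD, n = 2), that of the Crebbp+/- samples 5.44 ± 0.02. The difference of 1.45 (SE 0.31) had a 95% interval from 0.63 to 2.26 and an adjusted p of 0.991 (limma). It was 1.72 in number 1 and 1.17 in number 2, and the gap between the highest wild-type array at 4.56 and the lowest mutant array at 5.0 was smaller than the distance between the replicate arrays of each sample. The 3 other probe sets of Dnajc6 stayed at background in every sample, with sample means from 2.30 to 2.58, so the difference rests on 1 probe set, and as a mean over the 4 probe sets it was 0.31.

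At the brightest probe set, separation of all 4 arrays by genotype was seen in 2 of the 35 members, Dnajc6 and Hspd1, beside 5.67% of all genes. Both were higher, beside 3.68% of all genes, and 0 members were lower, beside 1.99%. Both samples of a genotype lay on 1 side in 10 of 35 members, beside 28.1% of all genes. On the higher side (17.1% of all genes) were 6 members, Atf6, Hsph1, Dnajc6, Hspa9, Hspd1 and Hspe1, and on the lower (11.0%) 4, Ern1, Ddit3, Ppp1r15a and Pdia4. These shares of the members are close to those of all genes.

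At their brightest probe sets the remaining cytosolic chaperones had small genotype differences between bright signals. Hspa8, the constitutive Hsp70, had sample means of 13.18 and 13.30 in wild type and 13.19 and 13.28 in Crebbp+/-, a difference of -0.01 (SE 0.10) with an interval from -0.27 to 0.26. Its nucleotide exchange factors Hspa4 and Hsph1 differed by -0.01 (SE 0.13) and 0.05 (SE 0.09). Dimmer probe sets of Hspa4 differed by 0.97 (SE 0.63), 0.11 (SE 0.13) and 0.13 (SE 0.20). The dimmer probe set of Hsph1 differed by 0.70 (SE 0.36), and on it all mutant arrays lay above all wild-type arrays. Hsp90aa1, the inducible cytosolic Hsp90, differed by -0.02 (SE 0.15), and Stip1, the adaptor that joins Hsp70 and Hsp90, by 0.11 (SE 0.20). The Hsp40 genes Dnaja1 and Dnajb1, which deliver clients to Hsp70, differed by -0.04 (SE 0.13) and -0.12 (SE 0.22).

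Bag3, a cochaperone of Hsp70 in selective autophagy and a known target of heat shock factor, differed in 1 sample. Its arrays read 2.65, 2.70, 2.77 and 2.61 in wild type, 2.72 and 2.38 in Crebbp+/- sample 1, and 3.84 and 4.47 in Crebbp+/- sample 2. The other 3 samples were therefore at background, which gave a genotype difference of 0.67 (SE 0.55). Without that sample the genotype difference of Bag3 was -0.13.

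The mitochondrial chaperones were higher in both mutant samples. Hspd1, the chaperonin subunit, had arrays of 11.80, 11.79, 11.88 and 11.78 in wild type and of 11.99, 11.88, 12.00 and 11.91 in Crebbp+/-. All mutant arrays lay above all wild-type arrays, by little, and the difference was 0.13 (SE 0.12), at 0.14 in number 1 and 0.13 in number 2. Hspe1, its lid, differed by 0.13 (SE 0.12), at 0.16 and 0.09 within numbers, and Hspa9, the Hsp70 of the matrix, by 0.22 (SE 0.13), at 0.15 and 0.28. The 3 differences were positive under every alternative run, from 0.11 to 0.16 for Hspd1, 0.05 to 0.20 for Hspe1 and 0.14 to 0.30 for Hspa9. Leaving out a sample could not change these signs, since both mutant samples lay above both wild-type samples. Each difference had an adjusted p of 0.991 (limma). The intervals of Hspd1, -0.17 to 0.44, and Hspe1, -0.17 to 0.43, were of like width, and that of Hspa9 ran from -0.12 to 0.55.

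Wider lists of the same pathways gave a similar picture. Of 35 further ER genes 32 were tested, with 19 higher and 13 lower in Crebbp+/- and a median of 0.07, and of 32 further cytosolic genes 27 were tested, with 16 higher and 11 lower and a median of 0.03. Of 8 further mitochondrial genes all were tested, with 5 higher and 3 lower and a median of 0.05. In the 3 lists 0 genes passed the adjusted test, beside 0% of all genes. At an unadjusted p under 0.05 (limma) there were also 0, beside 2.67% of all genes. The lowest p-values belonged to Nupr1, a stress-induced chromatin protein, at -0.50 (SE 0.31), and Pdia5, a disulfide isomerase, at 0.43 (SE 0.27), among ER genes. Among cytosolic genes they belonged to Chordc1, an Hsp90 cochaperone, at 0.25 (SE 0.15) and Dnaja4, an Hsp40, at 0.29 (SE 0.20), and among mitochondrial genes to Grpel2 at -0.38 (SE 0.27) and Dnaja3 at 0.15 (SE 0.21), an exchange factor and a cochaperone of Hspa9. Hspa1a and Hspa1b, the stress-inducible Hsp70 genes, differed by -0.27 (SE 0.44) and -0.04 (SE 0.21); as near-identical copies they may share signal.

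The second comparison set the samples numbered 2 against those numbered 1 across both genotypes. Whether a number stands for a litter, a day or a batch is not stated in the labels, and the comparison describes the libraries. After adjustment 0 of 35 members and 0% of all genes differed by number (limma, lowest adjusted p 0.178 over 22518 probe sets). At an unadjusted p under 0.05, 4 of 35 members differed, Hsp90b1 and Hsp90aa1 higher and Ppp1r15b and Pdia3 lower in number 2, beside 20.1% of all genes (9.99% higher and 10.1% lower). The ER genes were divided, with 11 higher and 12 lower in number 2 and a median of -0.01, and 8 of the 9 cytosolic genes were higher with a median of 0.12. Of these 9, 6 had 1 sign in both genotypes, 66.7% beside 73.1% of all genes, and Bag3 exceeded the filter level only through Crebbp+/- sample 2. Over all genes the median was 0.03, with 5680 higher and 4920 lower.

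All 4 arrays of number 2 lay on 1 side of those of number 1 for 9 of the 35 members, beside 24.1% of all genes. Hspa5, Sdf2l1, Hsp90b1, Dnajb1 and Hsp90aa1 were on the higher side (12.8% of all genes), and Atf4, Ppp1r15b, Canx and Pdia3 on the lower (11.4%). Both samples lay on 1 side for 19 of 35 members, beside 56.5% of all genes, of which 11 were higher (30.9% of all genes) and 8 lower (25.7%). The shift had the same sign in both genotypes for 27 of 35 members, 77.1%, and for 73.1% of all genes. The median absolute shift was 0.22 for the members and 0.28 for all genes.

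**Figure D2:**
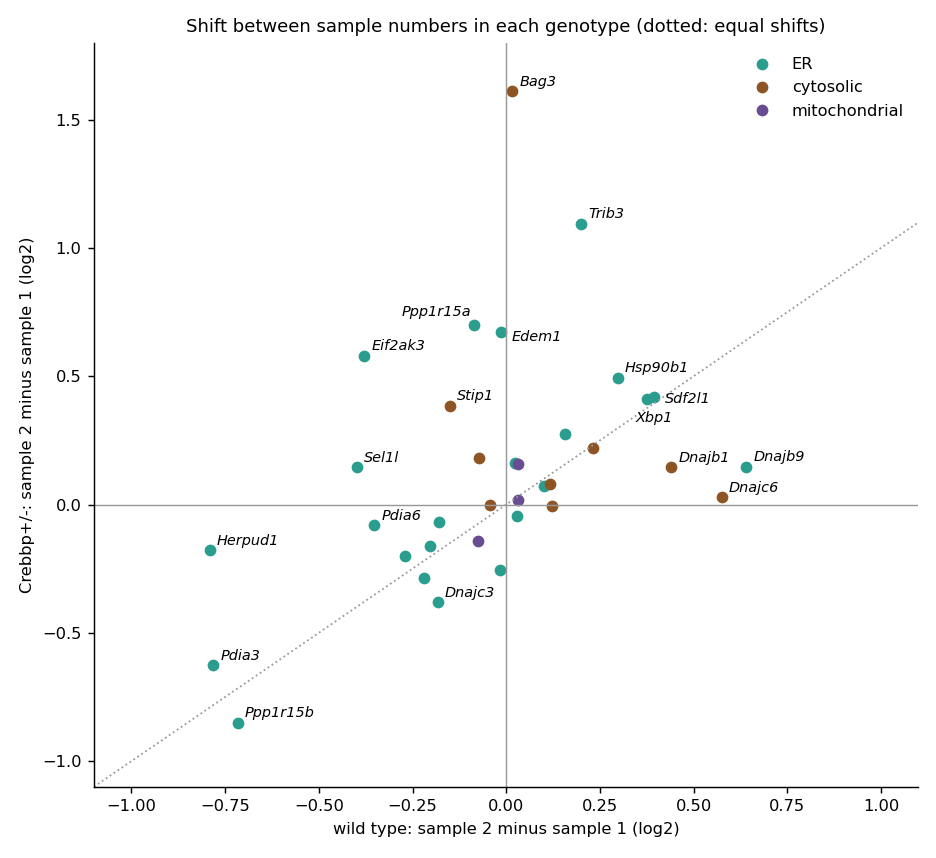
The plot sets the log2 shift from sample 1 to sample 2 in Crebbp+/- (vertical axis) against that in wild type (horizontal axis) for each of the 35 tested members, coloured by compartment, with the dotted line marking equal shifts and names given where either shift exceeds 0.35 in size. Ppp1r15b and Pdia3 lie at the lower left with shifts between -0.63 and -0.85, Hsp90b1, Xbp1 and Sdf2l1 at the upper right, and Bag3 is high in Crebbp+/- alone at 1.61.

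On the lower side the shifts of Ppp1r15b and Pdia3 were the largest in size. Ppp1r15b, the constitutive phosphatase subunit that reverses eIF2alpha phosphorylation, had arrays of 11.20 and 11.24 in sample 1 and 10.31 and 10.69 in sample 2 of wild type, and 11.67 and 11.68 in Crebbp+/- sample 1 and 10.84 and 10.82 in Crebbp+/- sample 2. All arrays of number 2 lay below all arrays of number 1, and the shift was -0.72 in wild type and -0.85 in Crebbp+/-. Over both it was -0.78 (SE 0.20), with an interval from -1.30 to -0.27 and an adjusted p of 0.187 (limma). A second probe set near background had a shift of 0.13, and the mean of both was -0.33.

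Pdia3, the isomerase that works with calnexin and calreticulin, behaved alike in its values. Its arrays read 10.90 and 10.81 in sample 1 and 10.01 and 10.13 in sample 2 of wild type, and 11.15 and 11.16 in Crebbp+/- sample 1 and 10.54 and 10.52 in Crebbp+/- sample 2. The arrays of number 2 were all lower, with shifts of -0.78 in wild type and -0.63 in Crebbp+/-, and the shift over both was -0.70 (SE 0.20) with an interval from -1.22 to -0.19 and an adjusted p of 0.198 (limma). When genotype was added as a term to this fit, Ppp1r15b and Pdia3 were the 2 members of 35 that passed, beside 10.7% of all genes, with adjusted p-values of 0.0166 and 0.0203 (limma). With the 8 arrays taken singly, these and the 2 higher members named above passed, beside 15.5% of all genes, and with the sample as a random block Ppp1r15b and Pdia3, beside 8.77%. Both samples of number 2 were also the lower ones for Herpud1 at -0.48 (SE 0.24), Dnajc3 at -0.28 (SE 0.12), Manf at -0.25 (SE 0.13), Pdia6 at -0.22 (SE 0.17), Canx at -0.18 (SE 0.07) and Atf4 at -0.12 (SE 0.10). At the brightest probe set the samples of the numbers overlapped in the remaining members with a lower mean. These were Atf6 at -0.23 (SE 0.25), Ddit3 at -0.14 (SE 0.30) and Sel1l at -0.13 (SE 0.17). The others were Hspe1 at -0.11 (SE 0.08), Hsph1 at -0.02 (SE 0.06) and Ern1 at -0.01 (SE 0.19).

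On the higher side, Hsp90b1, the Hsp90 of the ER lumen, had arrays of 9.88 and 10.06 in sample 1 and 10.40 and 10.14 in sample 2 of wild type, and 9.76 and 10.12 in Crebbp+/- sample 1 and 10.42 and 10.45 in Crebbp+/- sample 2. The arrays of number 2 were all higher, with only 10.14 against 10.12 at the closest point. The shift was 0.40 (SE 0.12, interval 0.09 to 0.71, limma adjusted p 0.211), at 0.30 in wild type and 0.49 in Crebbp+/-. Another probe set of Hsp90b1, with means of 9.57 in number 1 and 9.51 in number 2, shifted by -0.05 (SE 0.17). Its shift was 0.16 in wild type and -0.26 in Crebbp+/-. Hspa5 had sample means of 11.94 and 11.76 in number 1 and of 12.10 and 12.04 in number 2, a shift of 0.22 (SE 0.09; limma adjusted p 0.292). Sdf2l1, a partner of the J-domain proteins that help Hspa5, shifted by 0.39 in wild type and by 0.42 in Crebbp+/-. At its brightest probe set Xbp1 had shifts of 0.37 and 0.41, and Dnajb9, a J-domain protein that restrains Ern1, had 0.64 and 0.15. Other probe sets of Xbp1 shifted by 0.46 (SE 0.22), 0.54 (SE 0.21) and -0.01 (SE 0.35) over both genotypes. The last had -0.35 in wild type and 0.33 in Crebbp+/-. Those of Hspa5 shifted by 0.05 (SE 0.08) and, near background, by 0.60 (SE 0.23).

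In the cytosol, Hsp90aa1 had arrays of 12.10 and 12.15 in sample 1 and 12.49 and 12.22 in sample 2 of wild type, and 12.17 and 12.06 in Crebbp+/- sample 1 and 12.32 and 12.35 in Crebbp+/- sample 2. The shift of 0.23 (SE 0.06; interval 0.06 to 0.39; limma adjusted p 0.199) was nearly equal in the genotypes, at 0.23 and 0.22, but averaged over the 5 probe sets of the gene it was 0.0040. Dnajb1, the Hsp40 most closely tied to the heat shock response, shifted by 0.29 (SE 0.13), at 0.44 in wild type and 0.15 in Crebbp+/-. At their brightest probe sets Hspa8 shifted by 0.10 (SE 0.05), Stip1 by 0.12 (SE 0.16), Dnaja1 by 0.06 (SE 0.09), Hspa4 by 0.05 (SE 0.09) and Hsph1 by -0.02 (SE 0.06). Other probe sets of Dnaja1 shifted by 0.62 (SE 0.18) and 0.15 (SE 0.19). Those of Hspa8 shifted by 0.30 (SE 0.08), 0.0028 (SE 0.07) and -0.10 (SE 0.22). On the first of each gene all arrays of number 2 were higher. Hsph1 had -0.66 (SE 0.35) on its other probe set, and Hspa4 had -1.31, -0.02 and 0.19. The inducible Hsp70 genes of the wider list were also higher in number 2: Hspa1b had sample means of 11.75 and 11.80 in number 1 and of 12.20 and 12.08 in number 2, a shift of 0.37 (SE 0.08; limma adjusted p 0.178), and Hspa1a one of 0.77 (SE 0.28).

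**Figure D3:**
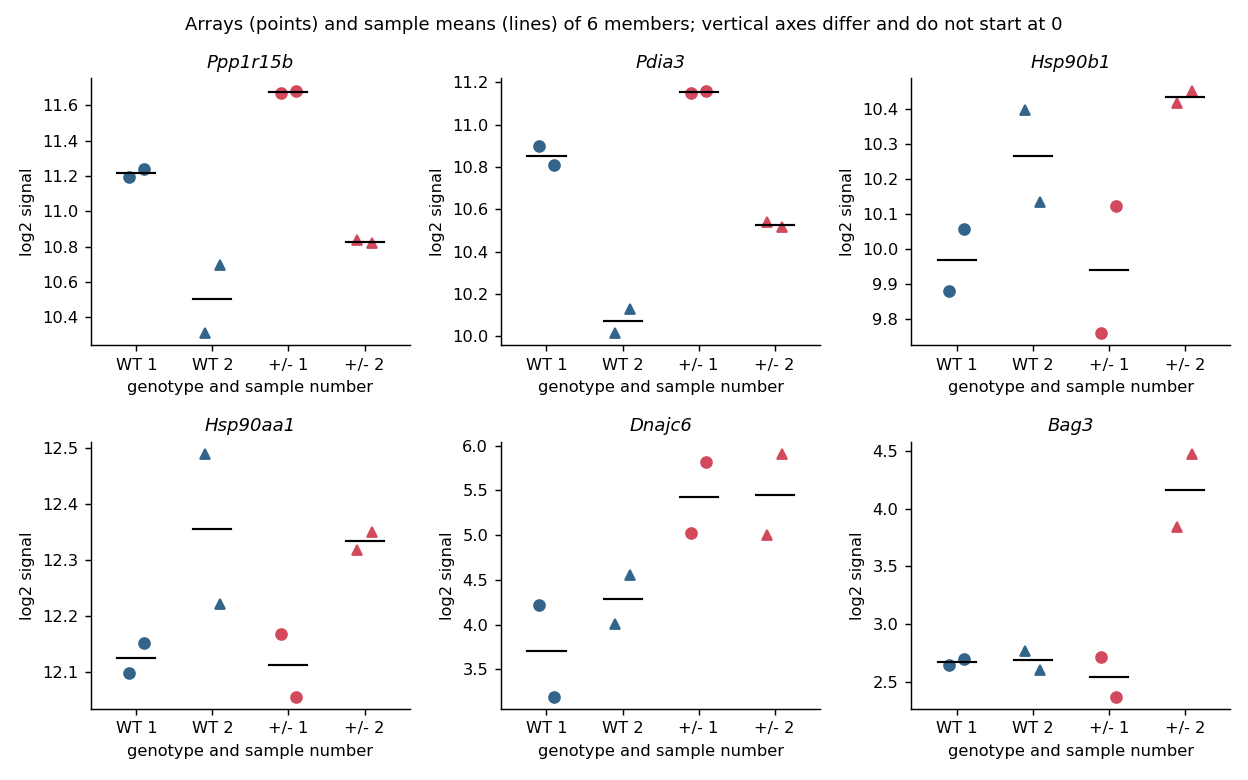
Each panel plots the log2 signal of 1 member by genotype and sample number, with a point for each array and a line at the mean of the 2 arrays; vertical axes differ and do not start at 0. Ppp1r15b and Pdia3 are lower and Hsp90b1 and Hsp90aa1 higher on the arrays of number 2 in both genotypes, Dnajc6 is higher on the arrays of Crebbp+/-, and Bag3 is above 3 only in Crebbp+/- sample 2.

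At their brightest probe sets some members had shifts of opposite sign in the genotypes. Eif2ak3 was lower in number 2 in wild type (-0.38) and higher in Crebbp+/- (0.58), on both arrays of each sample. Ppp1r15a had shifts of -0.09 and 0.70, Sel1l of -0.40 and 0.14, Edem1 of -0.01 and 0.67, and Stip1 of -0.15 and 0.38. Other tested probe sets of Edem1 (-1.07 in each genotype) and Sel1l (-0.68 in each, and -0.87 and -1.47) were lower in number 2 in both genotypes. With 1 sample for each genotype and number, the difference between the shifts of the genotypes has no residual degree of freedom and was not tested. At their brightest probe sets the mitochondrial genes shifted by 0.09 (Hspa9), 0.03 (Hspd1) and -0.11 (Hspe1), each within 2 standard errors of 0. A dimmer probe set of Hspe1 shifted by -0.51 (SE 0.14, limma adjusted p 0.19), at -0.62 in wild type and -0.40 in Crebbp+/-. All its arrays of number 2 lay below those of number 1. The dimmer tested probe set of Hspa9 shifted by -0.20 (SE 0.16).

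Other measures moved with the sample number. The Gapdh 5′ minus 3′ signal was -1.22 and -2.59 in wild-type samples 1 and 2 and -0.89 and -1.88 in Crebbp+/- samples 1 and 2, and that of Actb was -2.13, -3.19, -1.90 and -2.55 in the same order. All 8 genes of cell handling, which include Fos, Egr1 and Atf3 and respond within minutes to dissociation, were higher in number 2 with a median of 0.74, and their summed levels were 66.5 and 63.3 in number 1 and 71.7 and 70.9 in number 2. All 5 tested hepatocyte markers were higher with a median of 2.39, at 4.63 in wild type and 0.55 in Crebbp+/-. Of the 7 macrophage genes Csf1r, which progenitors also express, shifted by 1.27 and C1qb by 1.06, while C1qa, C1qc, Cd5l and Vcam1 stayed at background. The part of these differences in the shift of the members was not tested.

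The wider lists shifted in both directions by number, with 0 genes past the adjusted test, beside 0% of all genes. Over all genes the median was 0.03, and 9.99% were higher and 10.1% lower at an unadjusted p under 0.05 (limma). Of 32 ER genes 20 were higher and 12 lower with a median of 0.11, and 6 higher and 4 lower had an unadjusted p under 0.05 (limma), the lowest being those of Atf3, a stress-induced transcription factor counted among the handling genes too, at 1.70 (SE 0.20), and Tmbim6, an ER membrane protein that limits cell death, at -0.48 (SE 0.11). Of 27 cytosolic genes 16 were higher and 11 lower with a median of 0.07, and 7 higher and 1 lower had an unadjusted p under 0.05, led by Cct6a, a subunit of the cytosolic chaperonin, at 0.36 (SE 0.07) and Bag1, an Hsp70 exchange factor, at 0.43 (SE 0.09). Of 8 mitochondrial genes 4 were higher and 4 lower, and 0 higher and 2 lower had an unadjusted p under 0.05 (limma). These were Trap1, the Hsp90 of the matrix, at -1.24 (SE 0.19) and Hscb, a cochaperone of iron-sulfur cluster assembly, at -0.66 (SE 0.20). Trap1 had sample means of 11.76 and 11.45 in number 1 and of 10.16 and 10.57 in number 2.

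The 7 members with an exact ERSE or ERSE-II did not share a direction by number. Hspa5, Hsp90b1 and Calr, the last by 0.09 (SE 0.08), were higher in number 2 and Dnajc3, Canx, Pdia6 and Herpud1 lower, with a median of -0.18. By genotype 6 of the 7 were higher in Crebbp+/-, with Hspa5 the exception, and the median of 0.08 was the same as that of all ER genes.

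The array carries several probe sets for many members, which read different stretches of a transcript. Of the 97 probe sets of 1 symbol 77 were tested, and 25 members had over 1. Among these, 15 had 1 sign by number in all tested probe sets, and 14 had 1 sign by genotype. Probe sets whose names end in _s_at or _x_at, among them the brightest of Calr, Canx, Hspe1 and Trib3, can also detect related transcripts, so their values are less certain as those of 1 gene.

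The disagreements by number were large in a few genes. The brightest probe set of Dnajc3, which encodes an inhibitor of the eIF2alpha kinases, shifted by -0.28, and 2 others by -1.45 and -1.28. For Hspa4 the brightest shifted by 0.05 and another by -1.31, for Edem1 by 0.33 and -1.07, and for Sel1l by -0.13 and -1.17. In the opposite direction, Atf4 had -0.12 at its brightest probe set and 0.99 at another, on which sample means were 9.11 and 9.26 in number 1 and 10.31 and 10.03 in number 2. Such a gene has no single shift on this array.

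**Figure D4:**
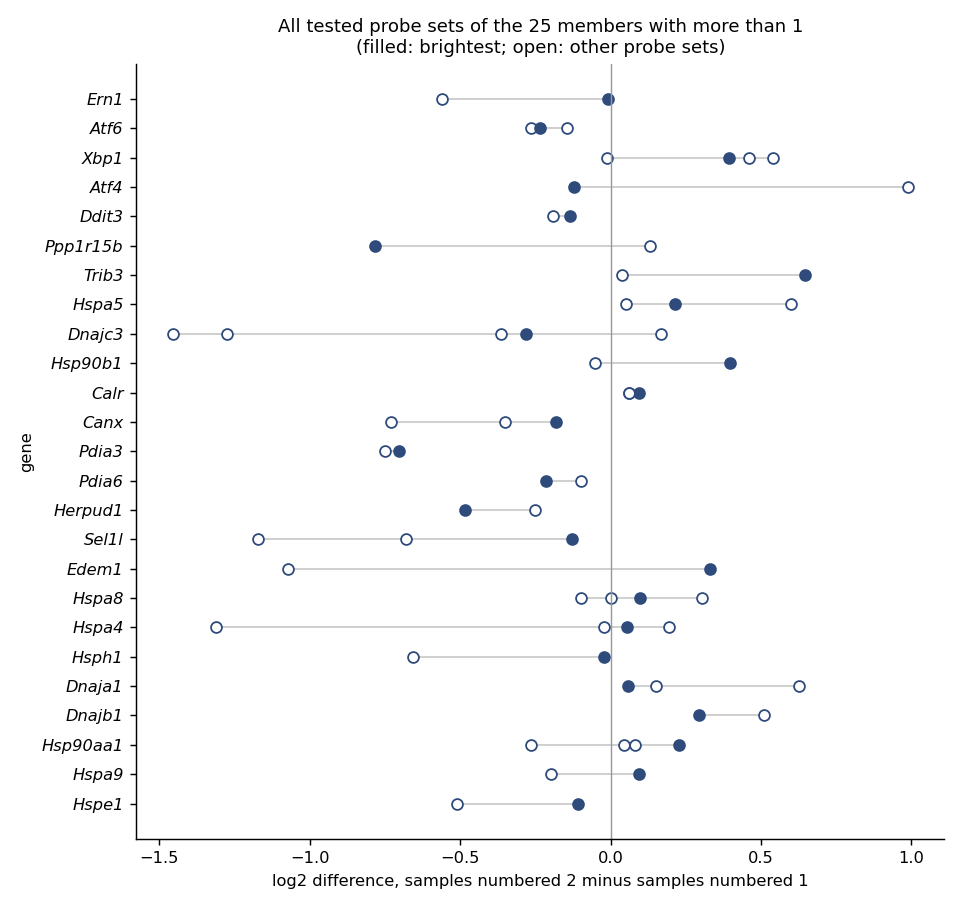
The plot gives the log2 difference between samples numbered 2 and 1 for every tested probe set of the 25 members with more than 1, with the brightest probe set filled, the others open and a line joining those of 1 gene. Dnajc3, Hspa4, Edem1 and Sel1l have open points at or below -1.07 beside a filled point between -0.28 and 0.33, and Atf4 has an open point at 0.99.

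Over the members, the brightest probe sets were lower in number 2 for 14 of 35, 40.0%, with a median shift of 0.09, and the other tested probe sets for 24 of 42, 57.1%, with a median of -0.08. Over all genes these shares were 46.4% of 10600 brightest and 53.4% of 8454 other probe sets, with medians of 0.03 and -0.04. The median shift thus had opposite signs in brightest and other probe sets, for the members and for the array as a whole. The other probe sets of the members come from 25 of the 35 genes. The compared sets therefore do not hold the same genes, and the part of probe set choice in the sign was not tested. By genotype 31 of the 42 other probe sets were higher in Crebbp+/- with a median of 0.13, beside 0.04 over all other probe sets.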

How the data were processed

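Total RNA of sorted fetal liver cells was measured on 8 Affymetrix mouse expression arrays, 4 per genotype. The deposited values are log2 signals that the authors computed by GCRMA, which corrects background and normalizes between arrays, per the submitters' processing notes. For GCRMA no version is given in the sources used here. Of 45101 probe sets in the table, 64 controls were left out, and 34945 of the rest carried 1 gene symbol in the platform annotation.

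The 2 arrays of each numbered sample were averaged. The 22518 probe sets with a mean above 2.72 entered limma 3.58.1 (R 4.3.3; lmFit and trended eBayes) by genotype alone or by sample number alone over the same 4 samples, with Benjamini-Hochberg adjustment and a cutoff of 0.05. The fits had 2 residual and 4.75 (genotype) or 4.90 (number) total degrees of freedom. Dim signals sit close to the GCRMA background, where differences are least reliable. The smallest p of an exact permutation test (two-sided) of 2 samples against 2 is 0.33, so none was used. The procedure was tested on simulated data with large shifts added to independent noise, which does not measure its power or error in these data.

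All members are named, with the 2 genes of lowest p in each wider list and Hspa1a and Hspa1b. Members, lists and rule were chosen with earlier results of these data known. Motifs were searched in RefSeq promoters of GRCm38.p6, matched by symbol. Alternatives covered the unit of replication, blocks, filter, normalization, floor, variance model, the probe set of a gene and leaving out each sample and array.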

Additional observations from a re-analysis of the deposited data

Results flagged for a closer look

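Eif2ak3 had arrays of opposite order in the genotypes. Its genotype difference was -0.50 in number 1 and 0.46 in number 2, with no overlap of arrays within either number, and equally its shift between numbers was -0.38 in wild type and 0.58 in Crebbp+/-; both pairs differ by 0.959. At its brightest probe set Hspa4 had a genotype difference of -0.14 in number 1 and 0.12 in number 2. These differ by 0.254, and arrays again did not overlap within a number. Neither difference was tested, since each combination of genotype and number is 1 sample.

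Of 70 groups of 4 arrays (35 members in each genotype), 2 held an array that stood apart by the ratio of the gap to the nearest array to the range of the group, above Dixon's 95% critical value for 4 values. In Canx the second array of Crebbp+/- sample 1 read 12.15, with the next at 11.90 (ratio 0.830). In Pdia6 the first array of the same sample read 8.76, with the next at 8.63 (ratio 0.863). Among groups of 4 independent values chance flags about 1 in 20. The groups here hold 2 replicate arrays from each of 2 samples, so that rate need not apply to them.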

How the results depend on the processing

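By genotype 0 of 35 members were called under any of the 22 alternatives, and 11 kept the sign of their difference under all of them; by number 4 were called under some alternative and 20 kept their sign. Treating the 8 arrays as separate samples, 1 probe set passed by genotype and 3057 by number, with 4 members called by number (Hsp90b1, Hsp90aa1, Ppp1r15b and Pdia3; 15.5% of all genes). With the sample as a random block, 1762 probe sets and 2 members (8.77% of genes) were called by number. With a replicate block (the other factor as a term), 0 probe sets were called by genotype and 2209 probe sets and 2 members by number. Deviations of same-numbered samples correlated at 0.55 over probe sets, but with 2 pairs the samples share only a number. The block changed no genotype call after adjustment. Of 22518 probe sets, 1089 had an unadjusted genotype p under 0.05 (limma) without the block and 3673 with it.

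The genotype median of cytosolic genes was 0.12 when a gene's probe sets were averaged. The number median of ER genes was -0.12 in the upper 25% of signals and -0.10 with probe sets averaged, and that of cytosolic genes was 0.18 after quantile normalization. Leaving out each sample or array gave genotype medians of -0.036 to 0.10 for ER genes and -0.084 (without Crebbp+/- sample 2) to 0.083 (without Crebbp+/- sample 1) for cytosolic genes, and -0.12 to 0.087 (ER) and 0.047 to 0.20 (cytosolic) for the number medians. For ER genes the extremes came without wild-type sample 2 (-0.036) and without its first array (0.10), and by number without wild-type sample 1 (0.087) and without Crebbp+/- sample 1 (-0.12). The cause was not tested. Signals near background, as of Bag3, Trib3, Pdia4 and Dnajc6, are the least precise, and leaving out a sample assumes that the lone sample varies like the others.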
